A study of Mus musculus with 7 samples.

Results

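The collecting duct principal-like cells of the mouse kidney were taken as the cells that the authors had placed in cluster 6, 870 of the 43745 cells in the matrix. They came from whole kidneys of 7 healthy C57BL/6 mice aged 4 to 8 weeks, whose cells went through 10x Chromium 3′ sequencing in droplets, which counts molecules by unique molecular identifiers (UMIs). By the labels, 3 kidneys came from reporter mice, of the genotypes Cdh16CremTmG, SclCremTmG and Nphs2CremTmG, in which Cre marks tubule, Scl-lineage or podocyte cells with a fluorescent protein, and 4 kidneys were wild type. No source used here ties the 7 libraries of the matrix to these mice, so all libraries were handled as replicate kidneys of 1 group and the genotypes cannot be told apart. The labels state 57979 cells.

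Principal cells line the connecting tubule and collecting duct among acid-secreting intercalated cells. Vasopressin acts on its V2 receptor in their basolateral membrane and, through cAMP, brings the water channel aquaporin 2 to the apical membrane. Water then leaves through aquaporins 3 and 4 on the other side. Aldosterone raises sodium entry through the epithelial sodium channel (ENaC), and potassium leaves the cell through apical channels. Along the connecting tubule, cells also carry calcium with the channel Trpv5 and the calbindins.

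Principal-like cells made up 1.92% ± 1.28 (SD, n = 7 libraries) of the cells of a library. Library 1 had the highest share, 123 of 2943 cells (4.18%, 95% Wilson interval 3.51 to 4.96), and library 7 the lowest, 4 of 5342 cells (0.0749%, interval 0.0291 to 0.192). The libraries in between held 122, 15, 38, 330 and 238 cells in the order 2 to 6. Library 7 fell below the minimum of 5 cells for a sum and entered no level below, so that levels are CPM, the UMIs of a gene per 1000000 UMIs summed over the cluster's cells of a library, in 6 libraries.

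Whole libraries held 4217169 to 49997616 UMIs, and their principal-like cells 58119 to 1173278 UMIs in the 6 libraries used. Principal-like cells had a median of 2894.5 UMIs, against 2318 in all other cells, and a median of 21.6% mitochondrial UMIs. That mitochondrial median lay between 13.6% and 20.7% in libraries 1 to 5 and was 30.6% in library 6. Of 42757 barcodes, 974 were seen in more than 1 library, and 44 principal-like cells carried such a barcode. The p-values below weigh a difference inside libraries only against the spread of that difference between libraries, part of which may be technical.

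The cells were described with 5 defining genes, which were chosen with earlier results of these data known and so cannot check the label. They were the water channel gene Aqp2, the sodium pump regulator gene Fxyd4, the V2 receptor gene Avpr2, the peptide hormone gene Apela and Hsd11b2. Hsd11b2 encodes the enzyme that keeps glucocorticoids away from the mineralocorticoid receptor. At least 4 of the 5 were seen in 579 of the 870 principal-like cells (66.6%), and every principal-like cell had at least 1. Outside the cluster 94 cells had 4 or 5 of them, 70 of which were in cluster 8, a small cluster of 110 cells. Since the authors clustered the cells on these same counts, all differences between the cluster and other cells are given as a description, without a test.

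The stretches in front of Aqp2 and Fxyd4 are shown because these genes had the largest fold of the cluster over other cells. Both are the 250 bases before the RefSeq start, on GRCm38.p6, 5′ to 3′ on the gene's strand. They were read at chr15:99578806-99579055 (plus strand) for Aqp2 and at chr6:117937336-117937585 (minus strand) for Fxyd4. Capitals mark the GATA motif AGATAA, here on the opposite strand, in Aqp2 and the AP-2 motif GCCNNNGGC in Fxyd4.
Aqp2: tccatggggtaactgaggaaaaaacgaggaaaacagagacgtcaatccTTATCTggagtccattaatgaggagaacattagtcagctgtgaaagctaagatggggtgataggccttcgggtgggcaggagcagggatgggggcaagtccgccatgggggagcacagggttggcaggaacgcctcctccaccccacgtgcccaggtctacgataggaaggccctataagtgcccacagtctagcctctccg
Fxyd4: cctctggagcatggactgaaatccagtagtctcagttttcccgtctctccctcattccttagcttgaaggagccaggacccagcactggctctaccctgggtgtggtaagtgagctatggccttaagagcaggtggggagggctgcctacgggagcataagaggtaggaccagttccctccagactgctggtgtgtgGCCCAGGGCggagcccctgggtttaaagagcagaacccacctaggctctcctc

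The GATA match began 202 bases before the start of Aqp2 and the AP-2 match 53 bases before that of Fxyd4. These motifs and the cAMP response element TGACGTCA were searched on both strands of 1 window per gene, its first in RefSeq, from 250 bases before to 50 after the start. The AGATAA letters were found in 1 of the 17 leading genes with a RefSeq window, Aqp2, and in 11.4% of 27025 windows of all genes. The AP-2 letters were found in 4 of 17, Fxyd4, Npnt, Rhcg and Tmem229a, and in 16.5% of all windows. TGACGTCA was found in 0 of 17 and in 1.88% of all windows.

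Aqp2 had the largest fold of all genes in the cluster, and other water channel genes were mixed. In libraries 1 to 6 Aqp2 was at 7012, 7308, 8070, 8028, 2772 and 3453 CPM in principal-like cells, against 1634 ± 466 CPM (SD, n = 4 libraries) in cluster 8 and 24.6 ± 23.1 CPM (n = 7) in cluster 5, the next highest. The basolateral water channel gene Aqp3 was at 1648, 1617, 1807, 1702, 829 and 754 CPM in libraries 1 to 6. Libraries 5 and 6 were the lowest for both genes, and all 6 lay above the means of the other clusters. Aqp4, the other basolateral channel gene, was at 200.4, 283, 68.8, 132, 81.0 and 27.2 CPM, with library 6 lowest, and 13.0% of the cells had a UMI of it. Of the 7 water channel genes in the matrix these 3 were higher by the rule used throughout, at least 2-fold on average over the level averaged across the other 15 clusters (with 10 CPM added to each side) and the same direction in all 6 libraries. By that rule 628 of 16272 genes were higher, 3.86%, and 1078 were lower, 6.62%. The 2 lower water channel genes were Aqp1, the channel of the proximal tubule and thin limb, and Aqp6, a channel of intercalated cells. The median log2 fold of the 7 was -0.22, against -0.03 over all genes.

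The receptor and its pathway were measured next. Avpr2 was at 289, 326, 327, 330, 135 and 99.9 CPM in libraries 1 to 6 of principal-like cells, against 59.3 ± 21.0 CPM (n = 4) in cluster 8 and 11.6 ± 3.2 CPM (n = 7) in the loop of Henle-like cluster 4. Libraries 5 and 6 were again the lowest and still above both. Of 26 genes of vasopressin and cAMP signalling only Avpr2 and the adenylyl cyclase gene Adcy6 were higher, and Avpr1a and Akap13 lower. The median log2 fold of the list was 0.03. Its remaining members, among them the protein kinase A subunits Prkaca and Prkar1a and the vesicle genes Vamp2 and Rab11a, were within the 2-fold limit or did not keep their direction.

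Sodium transport genes were spread more evenly over the libraries. Fxyd4, which modulates the sodium pump, was at 5167, 4754, 5884, 5416, 2034 and 1021 CPM in libraries 1 to 6 and thus lowest in libraries 5 and 6. Hsd11b2 was at 4592, 3926, 3304, 3899, 2738 and 4183 CPM, with no such order, and had a UMI in 99.1% of the cells. The ENaC subunit genes Scnn1b at 459 to 621 CPM, Scnn1g at 241 to 425 CPM and Scnn1a at 376 to 545 CPM spanned less than Aqp2 did. Cluster 8 came close for Scnn1a, at 473 ± 67.6 CPM (n = 4) against 461 ± 68.4 CPM (n = 6) in principal-like cells. Of 23 sodium genes 11 were higher and 4 lower, with a median log2 fold of 1.05. The higher ones included the mineralocorticoid receptor gene Nr3c2 and its target Sgk1, the pump subunit gene Atp1b1 and the ubiquitin ligase gene Nedd4l. Only 5 of the 23 were highest in principal-like cells, Nr3c2 among them. Nedd4l was at 75.0 CPM, against 122 CPM in the intercalated-like cluster 7 and 148 CPM in cluster 8. Atp1b1 was at 2969 CPM, against 3164 CPM in the loop of Henle-like cluster 4. Sgk1 was at 392 CPM, against 794 CPM in the endothelium-like cluster 1. The lower ones were Fxyd2 and Fxyd5, other pump regulators, the glucocorticoid receptor gene Nr3c1 and its target Tsc22d3.

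Among potassium channel genes 5 of 10 were higher and 1, Kcnk5, was lower. Kcnj1, the secretory channel ROMK, was at 439, 665, 895, 844, 545 and 667 CPM in libraries 1 to 6 of principal-like cells, against 484 ± 60.8 CPM (n = 7) in the distal convoluted tubule-like cluster 5. Library 1 lay below that mean, so Kcnj1 was shared with cluster 5. Kcne1, an accessory channel subunit, was at 323 to 515 CPM in principal-like cells and at 201 ± 32.7 CPM (n = 4) in cluster 8, but only at 4.89 ± 4.73 CPM (n = 7) in cluster 5. Kcnq1, a pore subunit that Kcne1 is known to join, was at 106 to 174 CPM, and Kcnj10 and Kcnj16, subunits of basolateral channels, were also higher.

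**Figure D1:**
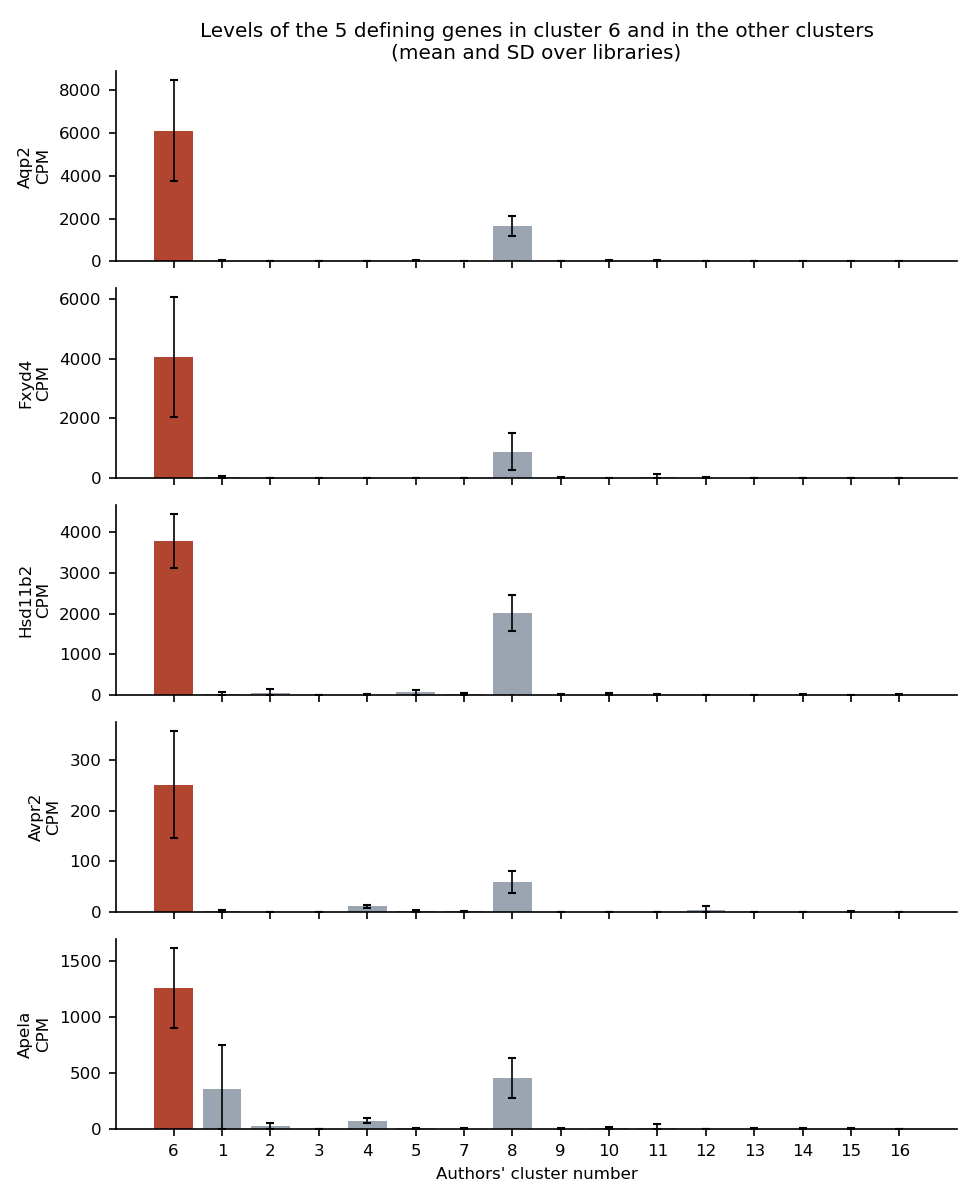
Mean CPM with SD over libraries of Aqp2, Fxyd4, Hsd11b2, Avpr2 and Apela (linear axes, a panel per gene) in cluster 6 at the left and in the 15 other clusters by number. Cluster 8 is the next highest for all 5 genes, at 1634 CPM for Aqp2 against 6107 CPM in cluster 6.

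Among secreted signals Apela, the apelin receptor ligand, had the largest fold over the other clusters, at 1568, 1126, 1566, 1570, 985 and 743 CPM in libraries 1 to 6 of principal-like cells. Cluster 8 held 457 ± 182 CPM of it (n = 4) and cluster 1, the endothelium-like cluster, 360 ± 395 CPM (n = 7). Libraries 5 and 6 were the lowest of the principal-like cells. Npnt, the basement membrane protein nephronectin, was at 548 to 1315 CPM, against 526 ± 137 CPM (n = 4) in the podocyte-like cluster 2. Of 23 genes of secreted signals and receptors in the matrix 10 were higher and 3 lower. The prostaglandin genes Ptgs1 and Ptges, which make prostaglandin E2, and its receptor gene Ptger1 were among the higher, and the receptor gene Ptger3 among the lower. The ligand gene Wnt7b missed the rule. It was at 26.5, 29.4, 34.4 and 26.4 CPM in libraries 1 to 4, at 0.852 CPM in library 5 and had no UMI in library 6, where a count of 0 allows up to 5.45 CPM.

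Of 31 transcription factors of the collecting duct and its neighbours 16 were higher and 3 lower, with a median log2 fold of 1.06. Gata2 was at 242 ± 61.0 CPM and Gata3 at 226 ± 46.0 CPM (n = 6), and the ETS factor gene Ehf at 164 ± 58.9 CPM. Tfcp2l1 was not highest in principal-like cells, with 816 ± 221 CPM against 948 ± 154 CPM (n = 4) in cluster 8 and 912 ± 133 CPM (n = 7) in the intercalated-like cluster 7. Foxi1 and Hmx2, known from intercalated cells, and the proximal tubule factor gene Hnf4a were the lower ones. Of 12 Notch genes 3 were higher, the target genes Hes1 and Nrarp and the ligase gene Mib1, and Notch1 was lower.

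Junction, keratin and caveola genes had the highest list median, a log2 fold of 2.14, with 14 of 19 higher and none lower. Only 8 of the 19 were highest in principal-like cells. Caveolin genes Cav1 and Cav2 were at 353 ± 87.9 and 376 ± 108 CPM in principal-like cells, against 105 and 98.6 CPM in the endothelium-like cluster. Cdh16, the kidney-specific cadherin gene, was at 1268 ± 259 CPM. The claudin genes Cldn3, Cldn4, Cldn7 and Cldn8 were all higher by the rule, but only Cldn4 was highest in principal-like cells. Cldn7 was at 148 CPM, against 161 CPM in the intercalated-like cluster 7 and 198 CPM in cluster 8. Cldn8 was at 382 CPM, against 443 CPM in cluster 8. Of 11 osmolyte genes 2 were higher, the tonicity factor gene Nfat5 and the heat shock gene Hspa1b, and the sorbitol dehydrogenase gene Sord was lower. Not one of 40 nuclear respiratory chain genes was 2-fold higher or lower, and their median log2 fold was 0.19. Their summed level was 41446 ± 4523 CPM in principal-like cells, against 63194 ± 5064 CPM in the intercalated-like cluster 7 (n = 7).

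**Figure D2:**
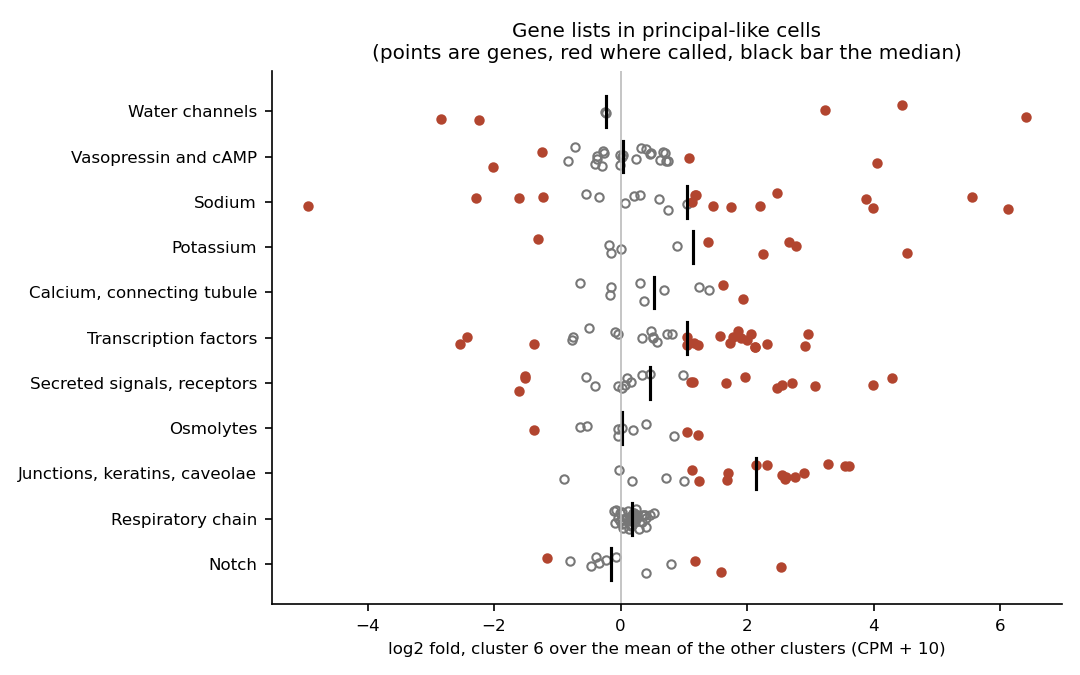
Log2 fold of cluster 6 over the average of all other clusters, as a mean of 6 libraries, for every measured member of 11 lists (rows). Filled points passed the rule of 2-fold and a common direction, and the black bar is the list median, highest for junctions, keratins and caveolae at 2.14.

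Of the 25 genes with the largest fold at 100 CPM or more, 24 were highest in principal-like cells, and for 23 cluster 8 was the next highest. The exception was the ammonia transporter gene Rhcg, at 701 ± 260 CPM against 732 CPM in cluster 8. Leaving cluster 8 aside, 24 of the 25 were at least 2 times the level of the next cluster, and Npnt was the one below that. Genes with more general roles in this group were Mcoln3, a cation channel, Gstm2, a glutathione transferase, and Cdo1, which degrades cysteine. Among genes below the other clusters in all 6 libraries, the 10 with the largest negative fold included the immune genes Cd74, Ccl5, Jchain and Lyz2. With the tubule and intercalated-like clusters 3, 4, 5 and 7 alone as the comparison, the log2 folds of Ccl5, Jchain and Lyz2 were 0.17, 0.13 and 0.0021, and 498 genes were lower in place of 1078.

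Markers of other cells were low in the cluster with the exception of the connecting tubule. The 6 intercalated markers summed to 32.4 to 138 CPM over the 6 libraries, 0.688% of their level in cluster 7, the 3 distal convoluted tubule markers to 43.0 to 372 CPM and the 3 loop of Henle markers to 160 to 792 CPM. The 5 proximal tubule markers summed to 889 to 2392 CPM, 7.00% of cluster 3. All 3 macrophage and all 3 urothelium markers had no UMI, which allows up to 1.10 CPM over all principal-like cells. Kap, a proximal tubule gene, had a UMI in 66.2% of principal-like cells and 80.7% of T lymphocyte-like cells (cluster 14, median 1875 UMIs). Atp6v1g3, an intercalated gene, had one in 10.7% and 13.6%. By these shares, pooled over libraries, both genes were at or below the background of free RNA. In library 2 Atp6v1g3 was above it, at 43.7 and 71.6 CPM in principal-like cells without and with a UMI of Fxyd4. T lymphocyte-like cells of library 2 held 13.6 CPM of it. In libraries 1, 5 and 6 both groups of principal-like cells were below the T lymphocyte-like cells. Distal genes were mixed. Umod, which the loop of Henle makes, was seen in 22.1% and 11.8%, Slc12a3 in 14.4% and 8.49% and Pvalb in 6.55% and 6.35%. Slc12a3 was not above the background in every library. In library 2 it was at 43.7 and 35.8 CPM in principal-like cells without and with a UMI of Fxyd4. T lymphocyte-like cells of that library held 45.2 CPM of it. The level of Umod was 133 to 639.9 CPM in principal-like cells and 6.62 to 237 CPM in T lymphocyte-like cells, and higher in principal-like cells in 6 of 6 libraries. For Aqp2 the shares were 96.2% and 1.91%, for Fxyd4 73.0% and 1.3%, and for Apela 74.7% and 0.765%.

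Connecting tubule genes were present and differed widely between libraries. Calb1, the cytosolic calcium binder calbindin-D28k, was at 878, 1133, 1239, 963, 3108 and 2643 CPM in libraries 1 to 6 of principal-like cells, against 3525 ± 671 CPM (n = 7) in cluster 5. S100g, the smaller calbindin-D9k, was at 15995, 26382, 2409, 6392, 49796 and 35460 CPM, and the protease gene Klk1 at 2119, 1660, 1256, 534, 5185 and 12779 CPM. Libraries 5 and 6 were the highest for all 3, and the same libraries were the lowest for Aqp2, Aqp3, Avpr2, Fxyd4 and Apela. The calcium channel gene Trpv5 was at 47.2, 45.2, 107 and 138 CPM in libraries 1, 2, 5 and 6 and had no UMI in libraries 3 and 4, where a count of 0 allows up to 51.6 and 19.8 CPM. Free RNA moved with these levels, since S100g in T lymphocyte-like cells was at 748, 926, 184, 422, 3548 and 2589 CPM in libraries 1 to 6, also highest in libraries 5 and 6. Its part in the result was not tested, nor was that of the mitochondrial share, which was highest in library 6. In T lymphocyte-like cells 63.6% had a UMI of S100g, against 89.2% of principal-like cells, but for Trpv5 these shares were 0.229% and 19.9%.

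**Figure D3:**
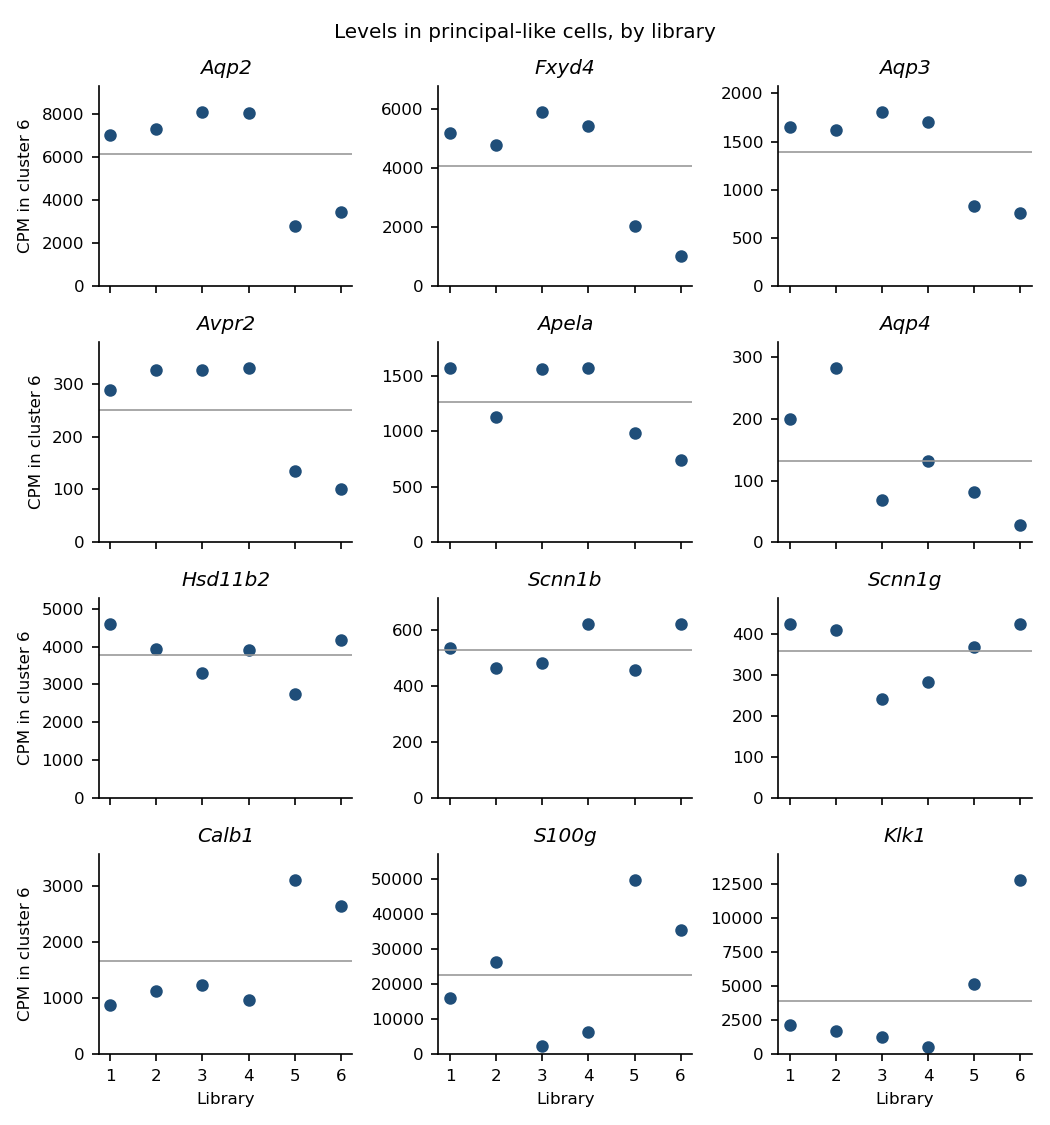
CPM of 12 genes in principal-like cells of libraries 1 to 6 (a point per library, a panel per gene, linear axes from 0, grey line the mean). Libraries 5 and 6 are lowest for Aqp2, Fxyd4, Aqp3, Avpr2 and Apela and highest for Calb1, S100g and Klk1, while Hsd11b2, Scnn1b and Scnn1g show no such order.

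Within the cluster, Fxyd4 set cells apart along the same genes. It had no UMI in 9 of 123 cells of library 1, 8 of 122 of library 2, 73 of 330 of library 5 and 142 of 238 of library 6, the 4 libraries with at least 5 such cells. Aqp2 was at 1594, 830, 1094 and 2090 CPM in the cells without Fxyd4 of libraries 1, 2, 5 and 6, against 7387, 7661, 3283 and 5279 CPM in the cells with it. Klk1 was at 15486, 16434, 13650.3 and 18804 CPM in the cells without and at 1194, 854, 2604 and 4705 CPM in the cells with Fxyd4. These levels are sums over cells, and 62.5% to 94.4% of the cells without Fxyd4 in a library still had a UMI of Aqp2. Aqp3, Aqp4, Avpr2, Apela, Npnt and Mcoln3 were also lower without Fxyd4 in 4 of 4 libraries, and Calb1, S100g and Trpv5 higher in 4 of 4. Hsd11b2 was at 4509, 3409, 2641 and 3834 CPM without and 4598, 3955, 2767 and 4650 CPM with Fxyd4, and had a UMI in 99.3% to 100% of the cells without. Scnn1b and Kcnj1 were higher without Fxyd4 in 3 of 4 libraries and Scnn1g in 1 of 4. This split was chosen after the values were seen and was not tested.

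**Figure D4:**
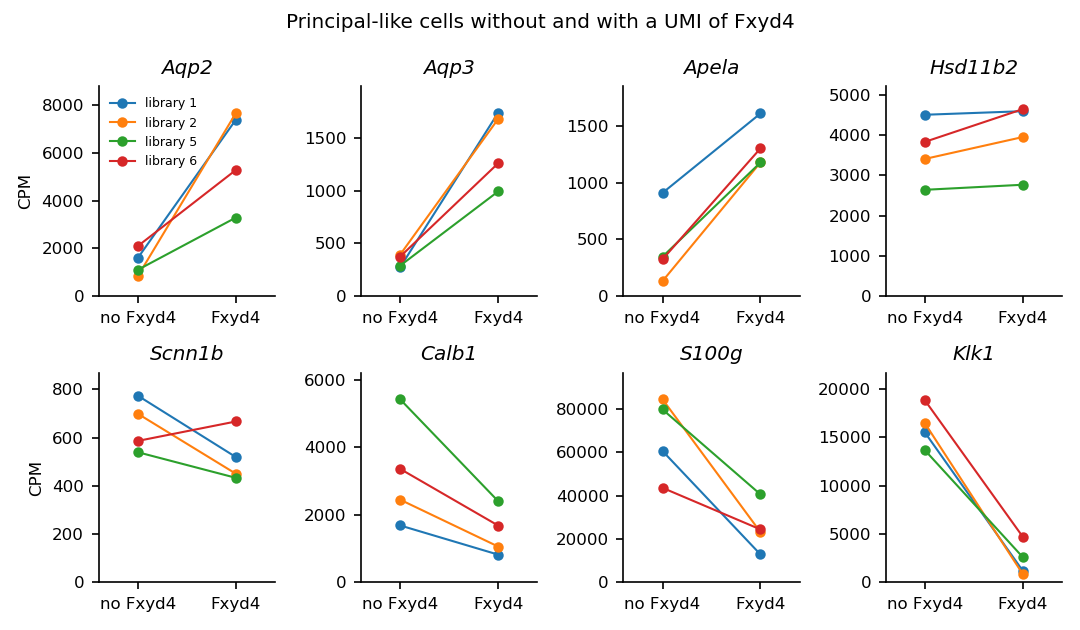
CPM of 8 genes in principal-like cells without (left) and with (right) a UMI of Fxyd4, a line per library (1, 2, 5 and 6), linear axes from 0. Aqp2, Aqp3 and Apela are lower and Calb1, S100g and Klk1 higher without Fxyd4 in all 4 libraries, while Hsd11b2 is lower without it in all 4 and Scnn1b higher without it in 3 of 4.

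Co-detection was also counted cell by cell, with the cells of all libraries pooled. A UMI of Fxyd4 was present in 52.6% of the cells with a UMI of Trpv5, against 78.0% of those without, and with each cell thinned to 1000 UMIs in 25.8% against 62.3%. Aqp4 and Trpv5 were both seen in 7 cells, Aqp4 alone in 106 and Trpv5 alone in 166. Of the cells with Aqp4, 98.2% had a UMI of Fxyd4, against 69.2% of the others. Detection itself differed between libraries, with Fxyd4 in 92.7% of the cells of library 1 and 40.3% of library 6. Inside libraries 1, 2, 5 and 6, Trpv5 was seen in 44.4%, 37.5%, 47.9% and 27.5% of the cells without Fxyd4. In the cells with Fxyd4 it was seen in 6.14%, 13.2%, 18.3% and 22.9%. The part of the library mix in the pooled shares was not tested.

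Cells with high and low Aqp2 were then compared inside each library, to ask which other genes go with the water channel. The cells at or above their library's median share of Aqp2 UMIs were summed and tested against the cells below it in 6 libraries with edgeR's quasi-likelihood test, which carried a term for each library. Of 2573 genes tested, 133 were higher (5.17%) and 121 lower (4.70%) at an adjusted p under 0.05, Aqp2 left out. Fxyd4 was at 7559, 7023, 8997, 6057, 3520 and 1876 CPM in the Aqp2-high cells of libraries 1 to 6, against 2113, 1867, 2991, 4752, 727 and 217 CPM in the Aqp2-low cells. The Aqp2-high cells were above the Aqp2-low cells of their own library in 6 of 6 libraries, though the ranges overlapped, and the log2 fold change was 1.61 ± 0.18 (SE, edgeR adjusted p = 1.76e-07).

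Water genes rose together in the Aqp2-high cells. Aqp3 rose with a log2 fold change of 0.90 ± 0.12 (SE) in 6 of 6 libraries and Avpr2 with 1.02 ± 0.15 in 6 of 6 (edgeR adjusted p = 3.52e-06 and 2.47e-05). Aqp4 had the largest change, 2.91 ± 0.39, and was higher in 4 of 6 libraries. Its levels were 350.5, 482, 35.4, 98.1, 162 and 52.4 CPM in Aqp2-high cells, against 6.86, 26.3, 102, 174, 9.67 and 3.55 CPM in Aqp2-low cells of libraries 1 to 6, so that libraries 3 and 4, with the fewest cells, ran the other way. Other genes that rose were Timp2, an inhibitor of metalloproteinases, Plet1, the linker histone gene Hist1h1c, the small heat shock gene Cryab, Junb, Arhgdib, Gsta3 and Adh1, with log2 fold changes between 1.41 and 2.68. Apela and the keratin genes Krt7, Krt8 and Krt18 rose as well.

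Connecting tubule genes fell in the Aqp2-high cells, with S100g, Calb1, Trpv5, Klk1 and the vitamin D receptor gene Vdr lower among 7 of that list tested. S100g was at 2354, 8595, 248, 2342, 32035 and 28372 CPM in Aqp2-high cells, against 34150.3, 50099.9, 4521, 11307, 65798 and 42423 CPM in Aqp2-low cells of libraries 1 to 6. It was lower in Aqp2-high cells in 6 of 6 libraries, with a log2 fold change of -2.39 ± 0.28 (SE, edgeR adjusted p = 5.18e-07). Klk1 fell by 2.52 and the sodium pump regulator gene Fxyd2 by 1.3 on the log2 scale, each in 6 of 6 libraries. Hsd11b2, Scnn1b, Scnn1g, Kcnj1, Gata2 and Gata3 did not pass the test, with log2 fold changes of 0.05, -0.30, -0.23, -0.13, 0.27 and 0.17.

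Genes of upstream segments fell too. Egf and Umod, which the thick ascending limb makes in quantity, fell by 2.32 and 2.13 on the log2 scale in 6 of 6 libraries, and the salt cotransporter genes Slc12a1 of the loop and Slc12a3 of the distal convoluted tubule by 1.88 and 1.63. The 3 loop of Henle markers summed to 70.8 to 298 CPM in the Aqp2-high cells and 202 to 1642 CPM in the Aqp2-low cells, and none of the 3 was at 0 in either. All 13 mitochondrially encoded genes fell as well, a group added after the values were seen. The Aqp2 share that set the split was a share of all UMIs, mitochondrial ones included. A higher mitochondrial share thus lowers it directly, and part of this fall may be built into the split. The median mitochondrial share was lower in Aqp2-high cells in 6 of 6 libraries, at 10.9% against 19.8% in library 1 and 25.9% against 32.4% in library 6. Neither measure's part in the calls was tested.

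**Figure D5:**
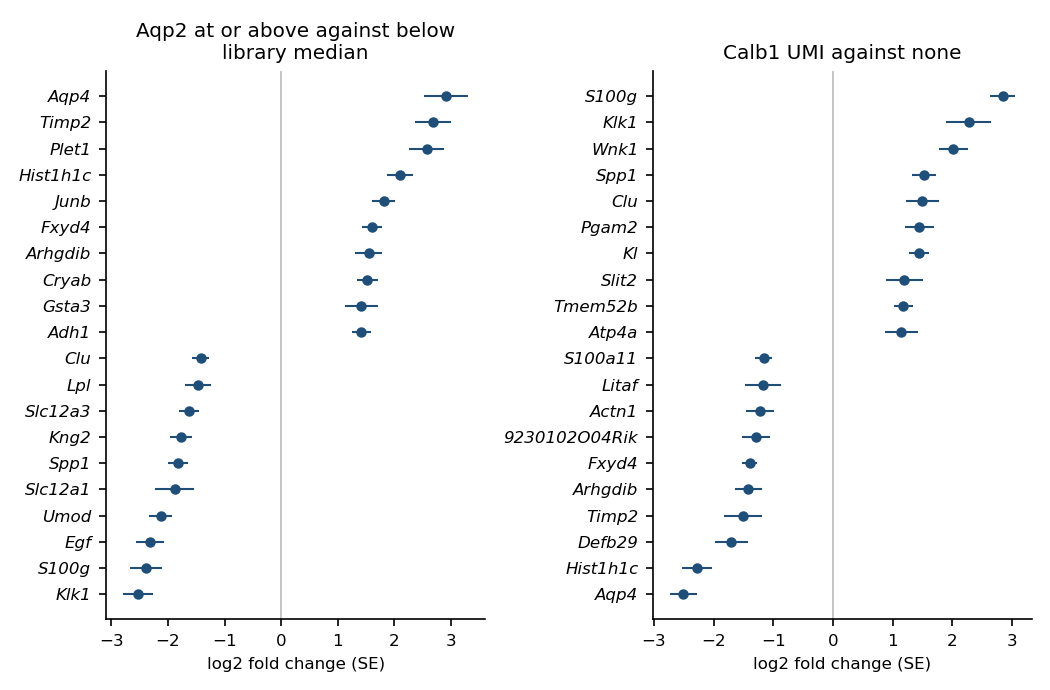
Log2 fold changes with SE (edgeR, a term for each library) of the named genes, 10 per direction. Left, cells at or above against cells below their library's median of Aqp2, in 6 libraries, where Aqp4 and Fxyd4 rise and Klk1 and S100g fall; right, cells with against cells without a UMI of Calb1, in 5 libraries, where S100g and Klk1 rise and Aqp4 and Fxyd4 fall.

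The Aqp2 calls depended on the pairing of cells by library, and without that term 2 genes were higher and 2 lower (237 at an unadjusted p under 0.05). After thinning every cell to 1000 UMIs, 687 genes could be tested and 21 were higher and 40 lower. Without library 2, 82 were higher and without library 5, 69.

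Calb1 was used for the opposite question, which genes go with the connecting tubule gene inside the cluster. Cells with a UMI of Calb1 were tested against cells with none in the 5 libraries with at least 5 cells of each (1, 2, 4, 5 and 6). Free RNA also held Calb1, which had a UMI in 14.9% of T lymphocyte-like cells. It was at 33.1, 45.2, 80.8, 248 and 168 CPM in T lymphocyte-like cells of these libraries. A single UMI therefore does not show that a cell made Calb1, and the part of free RNA in the split was not tested. Of 1609 genes, 76 were higher (4.72%) and 68 lower (4.23%) by the same test, Calb1 left out. S100g was at 21058, 32312, 7599.7, 54568 and 38059 CPM in the cells with Calb1 of these libraries, against 2495, 4558, 243, 6670 and 14135 CPM in those without. It was higher with Calb1 in 5 of 5 libraries, with a log2 fold change of 2.85 ± 0.20 (SE, edgeR adjusted p = 3.50e-09). Klk1 rose with a log2 fold change of 2.28 ± 0.38, the kinase gene Wnk1 with 2.02 ± 0.24 and the klotho gene Kl with 1.45 ± 0.17, each in 5 of 5 libraries. The other named genes that rose were the osteopontin gene Spp1, Clu, Pgam2, Slit2, Tmem52b and Atp4a, with log2 fold changes from 1.15 to 1.53.

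Water genes fell in the cells with Calb1, all 3 of those tested. Aqp4 was at 81.0, 152, 118, 46.4 and 12.2 CPM in the cells with Calb1 of libraries 1, 2, 4, 5 and 6, against 521, 767, 202, 408 and 157 CPM in those without, and fell by 2.51 on the log2 scale (SE 0.22, edgeR adjusted p = 9.80e-08). Fxyd4 fell by 1.39 and Aqp2 by 0.75, each in 5 of 5 libraries, and Aqp3 by 0.42 in 4 of 5 (edgeR adjusted p = 0.036), a call that 3 of 12 alternative settings kept. Avpr2, Hsd11b2, Scnn1b and Scnn1g did not pass, with log2 fold changes of -0.34, 0.13, 0.35 and 0.30. The pump gene Atp1b1 and the potassium channel gene Kcne1 rose, and the ENaC gene Scnn1a and the potassium channel gene Kcnj10 passed with edgeR adjusted p = 0.0445 and 0.0459, higher in 3 and 4 of 5 libraries, calls that 2 of 12 alternative settings kept for each. Hist1h1c, Timp2, Arhgdib and the paired box gene Pax2 fell, the last a call that 2 of 7 alternative settings kept.

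Respiratory chain genes rose with Calb1, 14 of 40 nuclear genes with none lower and a list median of 0.31 against 0.0025 over all genes tested. Examples were Atp5a1, a subunit of ATP synthase, with 0.50 ± 0.11, and Sdhb of complex II with 0.60 ± 0.17, each in 5 of 5 libraries. In the Aqp2-high cells only 4 of the 40 nuclear genes were lower and 1 was higher, with a list median of -0.15. Of 12 mitochondrially encoded genes tested, a group added after the values were seen, 10 rose. The median mitochondrial share was higher with Calb1 in 5 of 5 libraries, at 15.6% against 11.9% in library 1 and 30.7% against 29.6% in library 6.

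Depth moved with the Calb1 comparison, since cells with Calb1 had a median of 2748, 3490, 3488 and 2325 UMIs in libraries 1, 2, 5 and 6, against 1829, 3210, 2204 and 1425 in those without, and 3496 against 4266 in library 4. After thinning, 17 genes were higher and 13 lower of 598 tested, and S100g, Klk1, Spp1 and Fxyd4 still passed, with log2 fold changes of 1.58, 1.08, 1.54 and -1.11, while Aqp4 was too low to be tested. Without the library term no gene was called in either direction by edgeR (145 at an unadjusted p under 0.05), while DESeq2's Wald test with that term called 30 higher and 31 lower. Without library 2, 29 were higher and 26 lower, and without library 5, 29 and 38.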

How the data were processed

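The tools used upstream were Cell Ranger 1.3 and STAR, with the build mm10 (GRCm38.p4), per the submitters' processing notes. The authors deposited a matrix of raw UMI counts per gene and cell, and their cluster number for each cell; how cells were filtered, clustered or checked for doublets is not given in the sources used here, and no doublet caller was run. The number after each barcode gave the library. The 5 defining genes, the gene lists and the comparisons were chosen with earlier results of these data known.

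Counts were summed per library and cluster (at least 5 cells) and scaled to CPM, with a pseudocount of 10 CPM for folds. The high and low cells of each split were tested with edgeR 4.0.16 in R 4.3.3 (TMM, filterByExpr, quasi-likelihood test with library terms, Benjamini-Hochberg over all genes tested, threshold 0.05). The test was also run on simulated counts with the same mean profile in all libraries, so that run does not check the library terms. Both arms of a split came from the same kidney, so the library was kept as a block that pairs them. Sums of the cluster's UMIs set the depth, and intervals and limits cover counting error only.

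Named genes were the 5 defining genes, the 25 with the largest positive fold (at least 100 CPM) and the 10 with the largest negative fold (at least 100 CPM over the other clusters), each with its direction in all libraries, members of the lists, and for each split the 10 genes per direction with the largest change among those called at an average log2 CPM of at least 6. The Fxyd4 split and the mitochondrially encoded group were chosen after seeing the data. Alternatives were DESeq2 1.42.0 and its size factors, other filters, pseudocounts and comparison clusters, no block, thinned cells, each library left out, and 643 cells without a UMI of intercalated genes or Slc12a3 (227 left out). Promoters are from RefSeq on GRCm38.p6. Of the gene symbols, 15721 of 16272 were found in the gene-name table. Python 3.11.15 was used.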

Additional observations from a re-analysis of the deposited data

How the results depend on the processing

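The share of principal-like cells, 1.92% with an SD of 1.28 percentage points, was 1.54% to 2.23% with each library left out. It was 2.24% of the cells of clusters 3 to 8. Leaving out 1 of 7 libraries cannot move a mean by its SD, so that range does not show how stable the share is. Single libraries ran from 0.0749% to 4.18%. Of the counts of genes against other clusters, a pseudocount of 1 CPM gave 972 higher and 2525 lower genes in place of 628 and 1078, and the tubule and intercalated-like clusters alone gave 498 lower. With those clusters as the comparison, Ccl5, Jchain and Lyz2 changed sign, with log2 folds of 0.17, 0.13 and 0.0021. The 76 higher and 68 lower genes of the Calb1 split became 30 and 31 with DESeq2's Wald test, 115 and 35 without a low-count filter, 17 and 13 in thinned cells, and 37 and 32 without cells with a UMI of another type. Leaving out each library in turn gave 29 to 93 higher and 26 to 103 lower genes, with changes over 1.5 times without libraries 2, 5 and 6 for the higher and 2, 4 and 5 for the lower. The 133 higher and 121 lower genes of the Aqp2 split became 55 and 71 with DESeq2's Wald test and 21 and 40 in thinned cells, where fewer genes could be tested. Leaving out each library in turn gave 69 to 135 higher and 88 to 130 lower genes. Without libraries 5 and 6, an alternative chosen after seeing the data, the Calb1 split had 21 and 21 and the Aqp2 split 49 and 67, from fewer samples. Without the replicate block, which pairs the cells of a kidney, the Calb1 split had 0 and 0 calls by edgeR (145 genes at an unadjusted p under 0.05) and the Aqp2 split 2 and 2 (237 genes). The other causes were not tested. Of the genes named for each split, 18 of 241 alternative values with an adjusted p in the Aqp2 split and 38 of 213 in the Calb1 split lost their call, and none changed direction. Library 3, with 58119 UMIs in 15 cells, limits what low genes such as Trpv5 can show.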
